A study of Mus musculus with 6 samples.

Results

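The 9 genes described here encode the pore-forming subunits of kainate receptors (*Grik1* to *Grik5*) and of AMPA receptors (*Gria1* to *Gria4*) in the mouse. They were chosen by family membership, and all 9 were among the 21744 genes of the deposited table and passed the filter of a mean of 0.1 FPKM. Retinas were taken at postnatal day 7 from 3 control mice and 3 *Lhx4* null mice, and the retinas of each mouse made 1 RNA-seq library. The study gives the *Lhx4* null mice of its other experiments as *Lhx4* tdT/loxP with Six3-Cre, a Cre driver active in the developing retina. The labels give a mixed C57BL/6J and 129S6 background for all 6 mice. The sources used here do not say which alleles the sequenced mice carried, and they do not give the sex of each mouse. Values are FPKM, fragments scaled to transcript length and to the mapped total of each library, so levels can be compared between genes per length. Fold changes are null minus control on the log2(FPKM + 0.1) scale, and a gene is said to be called where its adjusted p from limma was under 0.05 over the 15200 genes tested.

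Kainate and AMPA receptors are glutamate-gated cation channels made of 4 subunits. In the outer retina, photoreceptors release glutamate in the dark. OFF cone bipolar cells and horizontal cells answer it with these channels, while ON and rod bipolar cells use a metabotropic receptor, encoded by *Grm6*, instead. GluK1, the product of *Grik1*, is a main kainate receptor subunit of OFF cone bipolar cells. Amacrine and ganglion cells carry AMPA receptors at the inner synapses. GluK1, GluK2, and GluK3 can form channels alone, whereas GluK4 and GluK5 need one of these as a partner.

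The pore loop of these subunits holds the glutamine codon known as the Q/R site, which the RNA-editing enzyme ADAR2 can recode to arginine in *Gria2*, *Grik1*, and *Grik2*. The windows below show how alike the subunit transcripts are at a conserved place, since reads of near-identical copies are hard to assign to 1 gene. They are coding sequence, 5′ to 3′, from GENCODE vM21 transcripts on GRCm38, each 51 bases long, with the Q/R codon in capitals.
Grik1: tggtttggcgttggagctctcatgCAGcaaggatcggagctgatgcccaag
Grik2: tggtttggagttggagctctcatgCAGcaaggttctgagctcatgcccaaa
Grik3: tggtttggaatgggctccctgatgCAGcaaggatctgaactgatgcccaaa
Gria2: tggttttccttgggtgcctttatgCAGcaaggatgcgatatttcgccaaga
Gria4: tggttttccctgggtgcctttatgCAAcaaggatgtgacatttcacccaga
In *Grik1* the capital codon is codon 636 and lies on chromosome 16 from 87940542 to 87940544, minus strand, and the window crosses an exon junction after its base 31. The *Grik1* window matched that of *Grik2* at 46 of 51 bases (90.2%) and that of *Grik3* at 41 of 51 (80.4%). The closest pair among all members was *Gria2* and *Gria3*, at 48 of 51 (94.1%), and the window of *Gria3* is not printed. Likeness outside the windows was not measured, and the part of read assignment in the values was not tested. *Gria4* was the only member with CAA in place of CAG. Editing itself is not visible in FPKM values and was not measured.

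All control libraries were deeper than all libraries labelled *Lhx4* null: relative to the deepest library, control replicate 3, the controls had 76.8% to 100% of its depth and the others 46.7% to 65.9% (exact permutation test, two-sided p = 0.1, which 3 against 3 cannot go below). Across genes, r between replicates was 0.982 to 0.992. The controls held 20.9, 23.8, and 19.1 FPKM of *Lhx4* itself and the null-labelled libraries 31.2, 30.3, and 29.0 FPKM, a direction that goes against the label (log2 fold change 0.51, limma adjusted p = 0.098), with FPKM taken over all exons. The groups are therefore named by their labels, and each direction below rests on them. The part of depth in the values below was not tested. In a whole retina, fewer cells of a type and less RNA per cell cannot be told apart.

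Of the 9 kainate and AMPA receptor subunits, *Grik1* alone was called, and it fell to 27.9% of its control mean. *Grik1* (ENSMUSG00000022935) lies on chromosome 16 of GRCm38 from 87895900 to 88290265 on the minus strand, and none of its exon bases are shared with another annotated gene. Control replicates 1, 2, and 3 held 14.0, 14.8, and 14.6 FPKM of *Grik1*, against 3.72, 3.62, and 4.75 FPKM in the null-labelled libraries. The groups stood far apart, with the highest null-labelled library below every control. The means were 14.4 ± 0.39 FPKM (SD, n = 3) and 4.03 ± 0.62 FPKM (SD, n = 3). The log2 fold change was -1.83 (SE 0.116, 95% interval -2.09 to -1.56, limma adjusted p = 8.525e-04, Benjamini-Hochberg), a level 3.54-fold lower (2.95 to 4.26). Only 0.138% of the 15200 genes tested were called lower, 21 in all, and 0.224% were called in either direction. The study picked *Grik1* from these libraries as a gene to name, so its call is not independent of that choice. Over 14 alternative settings the log2 fold change stayed between -1.95 and -1.62, and the highest adjusted p from limma was 0.014.

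The other 8 members differed by at most 0.23 on the log2 scale, none was called, and in none were the groups free of overlap, as they were for 14.2% of all genes tested. Over the 9 members, 5 had a negative and 4 a positive log2 fold change, with a median of -0.07 against 0.01 over all genes tested. The smallest adjusted p among the 8 was 0.72, for *Gria2*.

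**Figure D1:**
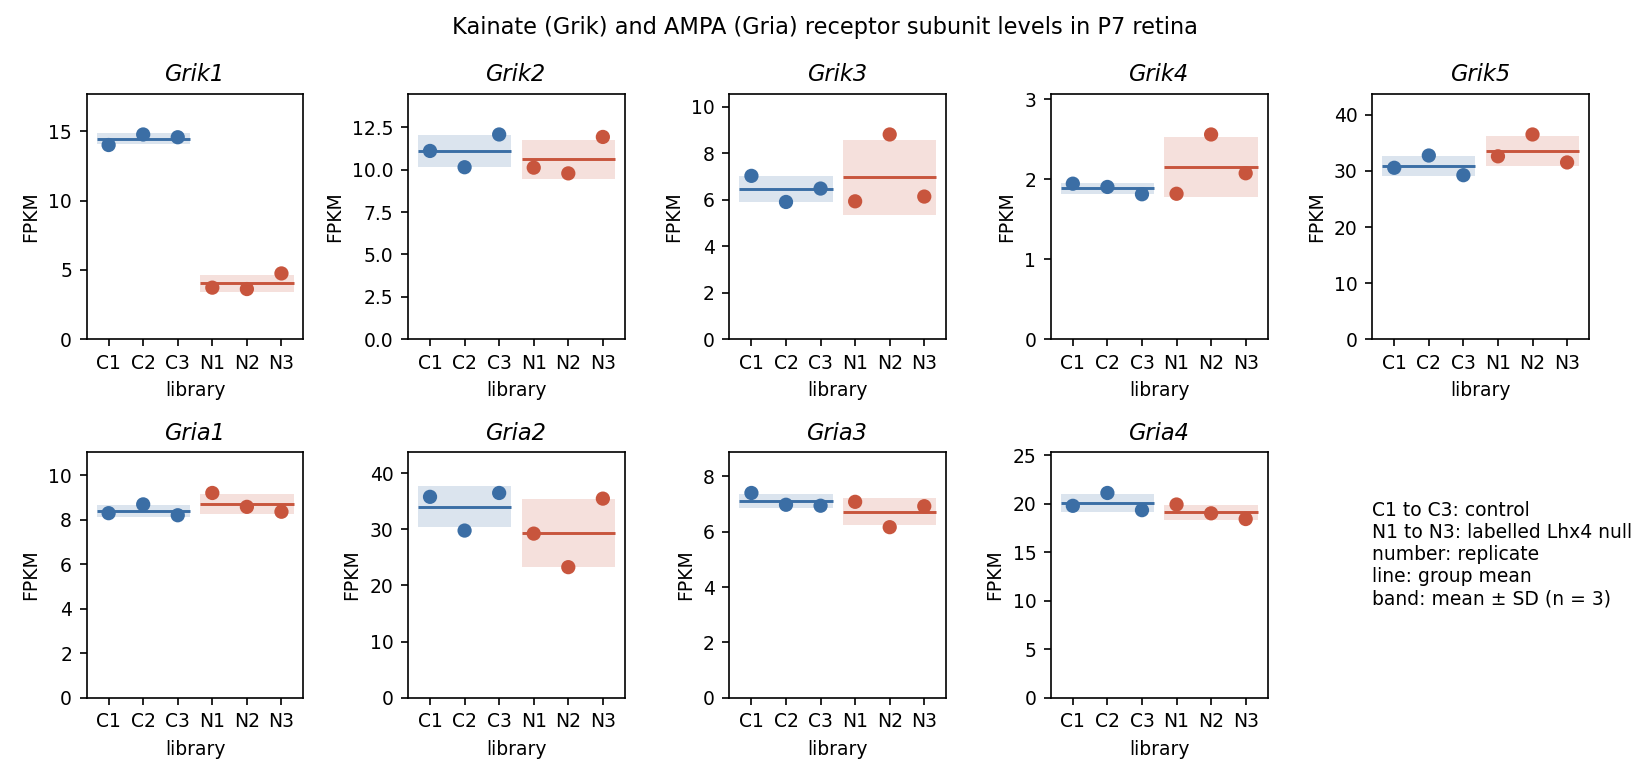
FPKM of each subunit gene (vertical axes from 0) in 3 control libraries (C1 to C3) and 3 libraries labelled *Lhx4* null (N1 to N3), with the group mean as a line and mean ± SD as a band. *Grik1* is at 14.0 to 14.8 FPKM in controls and 3.62 to 4.75 FPKM in the others, while the points of the other 8 genes overlap between groups.

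*Grik2* (chromosome 10, 49094833 to 49788766, minus strand), whose product GluK2 also forms channels alone, was at 11.1, 10.1, and 12.1 FPKM in the controls and 10.1, 9.78, and 11.9 FPKM in the null-labelled libraries. The libraries were interleaved, and the 3 highest were control replicates 3 and 1 and null-labelled replicate 3. The log2 fold change was -0.07 (SE 0.106, limma adjusted p = 0.90), with a 95% interval of 0.806 to 1.13 times the control level. *Grik2* is the member most like *Grik1* in the windows printed above. Within each library, *Grik1* per 100 *Grik2* FPKM was 126, 146, and 121 in controls and 36.8, 37.0, and 39.8 in the others (exact permutation test, two-sided p = 0.1, adjusted p = 0.60 over 6 added quantities). This ratio does not depend on library scaling, and it was chosen after the data were seen.

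*Grik3* (chromosome 4, 125490700 to 125714173, plus strand), for the third subunit that forms channels alone, was at 7.02, 5.90, and 6.48 FPKM in the controls and 5.93, 8.80, and 6.13 FPKM in the null-labelled libraries. Null-labelled replicate 2 was the highest of the 6, and the other null-labelled libraries lay within the control range. The log2 fold change of 0.08 (SE 0.157, limma adjusted p = 0.92, interval 0.825 to 1.36 times the control level) became -0.10 without that library.

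*Grik4* and *Grik5* encode the subunits that need a partner. *Grik4* (chromosome 9, 42518135 to 42944493, minus strand) was the lowest of the 9 genes, at 1.95, 1.91, and 1.81 FPKM in the controls and 1.82, 2.56, and 2.08 FPKM in the null-labelled libraries. Null-labelled replicates 2 and 3 were above all controls and replicate 1 was within their range (log2 fold change 0.17, SE 0.152, limma adjusted p = 0.80, interval 0.882 to 1.43 times the control level). *Grik5* (chromosome 7, 25009849 to 25072346, minus strand) was the highest kainate receptor gene, at 30.5, 32.7, and 29.2 FPKM in the controls and 32.6, 36.5, and 31.5 FPKM in the others. Its log2 fold change was 0.12 (SE 0.081, limma adjusted p = 0.73), with an interval of 0.954 to 1.24 times the control level, and the 2nd highest library was a control.

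Among the AMPA receptor genes, *Gria2* (chromosome 3, 80681450 to 80802835, minus strand), whose edited product makes the channel nearly impermeable to calcium, had the largest difference. It was at 35.8, 29.8, and 36.5 FPKM in the controls and 29.2, 23.3, and 35.5 FPKM in the null-labelled libraries. The same 3 libraries that were highest for *Grik2* were highest here: control replicates 3 and 1 and null-labelled replicate 3. The log2 fold change was -0.23 (SE 0.151, limma adjusted p = 0.72), with an interval of 0.672 to 1.08 times the control level. It was -0.38 without null-labelled replicate 3 and -0.07 without null-labelled replicate 2, and in neither case did the adjusted p pass 0.05.

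*Gria1* (chromosome 11, 57011387 to 57330244, plus strand), which encodes GluA1, was at 8.29, 8.68, and 8.20 FPKM in the controls and 9.20, 8.57, and 8.35 FPKM in the null-labelled libraries, with 1 control above all but 1 of them. The log2 fold change was 0.05 (SE 0.083, limma adjusted p = 0.90), with an interval of 0.909 to 1.18 times the control level. *Gria3* (chromosome X, 41400854 to 41678601, plus strand), which encodes GluA3, was at 7.40, 6.97, and 6.94 FPKM in controls and 7.08, 6.16, and 6.92 FPKM in the others. The groups overlapped, and the log2 fold change of *Gria3* was -0.08 (SE 0.093, limma adjusted p = 0.85, interval 0.816 to 1.10 times the control level). *Gria4* (chromosome 9, 4417896 to 4796234, minus strand), which encodes GluA4, was at 19.8, 21.1, and 19.3 FPKM in controls and 19.9, 19.0, and 18.4 FPKM in the others. Null-labelled replicate 1 was above control replicates 1 and 3. That was a log2 fold change of -0.07 (SE 0.072, limma adjusted p = 0.82), and its interval of 0.849 to 1.07 times the control level was the narrowest of the AMPA genes. The annotation places a small gene on the same strand within the exons of *Gria2*, *Gria3*, *Gria4*, and *Grik4*, over 0.301% to 0.990% of their exon bases.

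**Figure D2:**
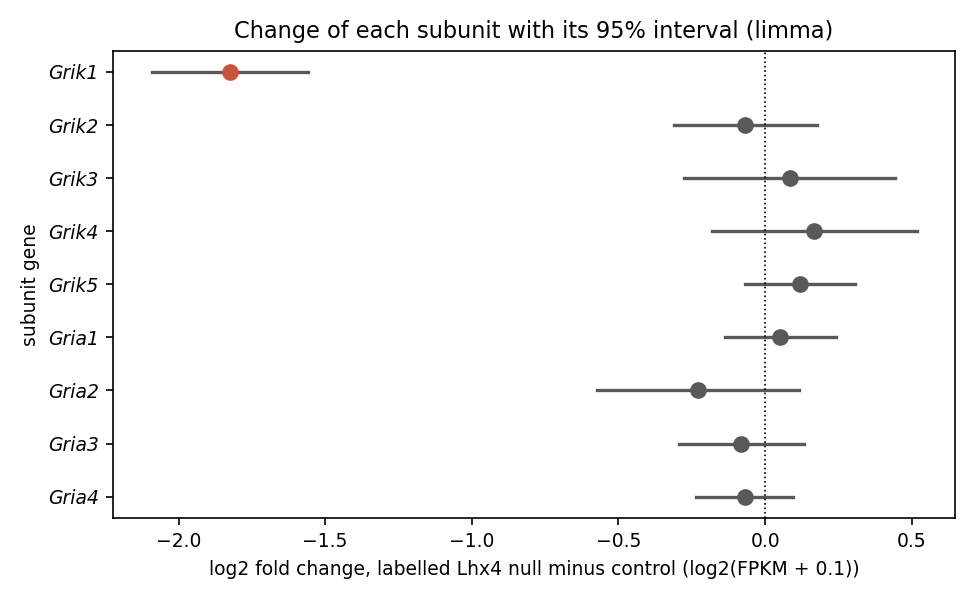
Log2 fold change of each subunit gene, libraries labelled *Lhx4* null minus control on the log2(FPKM + 0.1) scale, with its 95% interval from limma (horizontal lines). The interval of *Grik1*, -2.09 to -1.56, lies below 0, and the intervals of the other 8 genes include 0.

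From high to low, the controls ran *Gria2*, *Grik5*, *Gria4*, *Grik1*, *Grik2*, *Gria1*, *Gria3*, *Grik3*, and *Grik4*, and the neighbours *Gria2* and *Grik5* and the neighbours *Gria3* and *Grik3* overlapped in range. In the null-labelled libraries, *Grik1* was 8th, between *Gria3* and *Grik4*, where it had been 4th, and it overlapped with neither. There *Grik5* and *Gria2* overlapped, as did *Gria1* and *Grik3*, and *Grik3* and *Gria3*.

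The make-up of the kainate receptor transcripts followed *Grik1*. Its share of the summed FPKM of the 5 genes was 21.7%, 22.6%, and 22.7% in controls and 6.87%, 5.92%, and 8.42% in the libraries labelled *Lhx4* null. The groups did not overlap (22.3 ± 0.56% against 7.07 ± 1.26%, SD, n = 3 each), and the exact permutation test, two-sided, gave its smallest possible p = 0.1 (adjusted p = 0.24 over 12 shares and sums). The share of *Grik5* was 47.6 ± 2.2% and 58.5 ± 2.3% (SD, n = 3 each), that of *Grik3* 9.99 ± 0.93% and 12.1 ± 2.0%, and that of *Grik4* 2.92 ± 0.09% and 3.74 ± 0.41%, without overlap in each case. Since shares sum to 100%, the shares were computed again with *Grik1* left out of the sum, a choice made after the data were seen, and the groups then overlapped for *Grik2*, *Grik3*, *Grik4*, and *Grik5*.

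The summed kainate receptor level was 64.6, 65.4, and 64.1 FPKM in controls and 54.2, 61.2, and 56.4 FPKM in the null-labelled libraries. It was lower in every one of them (exact permutation test, two-sided p = 0.1, adjusted p = 0.24). Without *Grik1* the sum was 50.6, 50.7, and 49.6 FPKM against 50.5, 57.6, and 51.6 FPKM, with overlap (exact permutation test, two-sided p = 0.3, adjusted p = 0.60). The summed AMPA receptor level was 69.6 ± 2.6 FPKM and 63.9 ± 6.2 FPKM (SD, n = 3 each, exact permutation test, two-sided p = 0.2), and kainate receptor FPKM per 100 AMPA receptor FPKM were 93.2 ± 4.5 and 90.6 ± 14.6 (p = 0.9). Within the AMPA family, *Gria2* made up 48.8 ± 3.6% of the sum in controls and 45.6 ± 5.3% in the others, *Gria4* 28.9 ± 2.4% and 30.1 ± 3.4%, *Gria1* 12.1 ± 0.84% and 13.7 ± 1.5%, and *Gria3* 10.2 ± 0.38% and 10.5 ± 0.47%. All 4 AMPA shares overlapped between the groups.

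**Figure D3:**
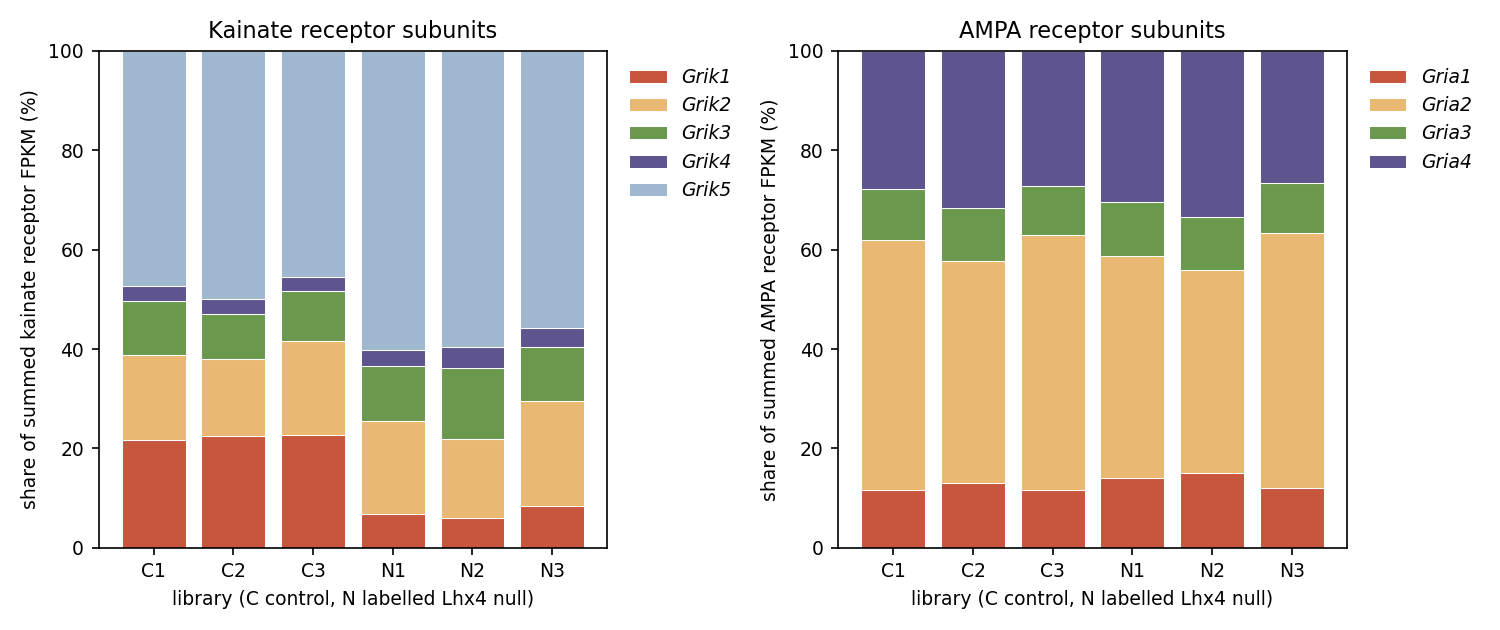
Share of each gene in the summed FPKM of the kainate (left) and AMPA (right) receptor subunits, in percent, for each of the 3 control (C) and 3 null-labelled (N) libraries. *Grik1* takes 21.7% to 22.7% of the kainate sum in controls and 5.92% to 8.42% in the others.

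No gene was called among those for proteins that assemble, carry, and anchor these receptors or for other glutamate receptors. Of 70 genes in 8 lists, 0 had an adjusted p under 0.05 from limma, while at an unadjusted p under 0.05, 1 was lower and 8 were higher. Their median log2 fold change was 0.03. At that unadjusted threshold 3.55% of all genes tested were lower and 4.60% higher, against 1.43% and 11.4% of the lists. The 8 higher genes became 0 without control replicate 1, 1 without control replicate 3, 3 without null-labelled replicate 1, and 5 without null-labelled replicate 2. They numbered 8 without control replicate 2 and 10 without null-labelled replicate 3. The 1 lower gene became 5 without null-labelled replicate 1, more than the 3 higher genes left there. It became 0 without control replicate 2 or 3 or null-labelled replicate 2 or 3.

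Of the auxiliary subunits of AMPA receptors, which set gating and surface number, 4 of 15 were higher at the unadjusted threshold and 0 lower. *Cacng4*, a TARP (transmembrane AMPA receptor regulatory protein), was at 27.1, 27.7, and 26.0 FPKM in controls and 31.9, 30.6, and 29.0 FPKM in the null-labelled libraries. *Cacng8*, another TARP, was at 1.82, 1.84, and 1.84 FPKM and at 2.38, 2.27, and 2.33 FPKM. Both were free of overlap, with log2 fold changes of 0.18 and 0.33 (limma adjusted p = 0.58 and 0.54). Of the 15 genes, 3 were higher and 1 lower without overlap, as were 14.2% of all genes tested in either direction. The lower one was *Cacng7*, a TARP and the most abundant of the list, named after its values were seen. It was at 47.7 to 53.2 FPKM in controls and 43.9 to 47.4 FPKM in the others (log2 fold change -0.11, limma adjusted p = 0.72). *Cacng3* (log2 fold change 0.34) and the cornichon *Cnih3* (0.53) overlapped between groups (limma adjusted p = 0.51 and 0.60).

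Of the 2 auxiliary subunits of kainate receptors, *Neto1* was at 0.923, 1.36, and 0.859 FPKM in controls and 0.869, 0.828, and 0.545 FPKM in the others (a difference of -0.43 on the log2 scale, limma adjusted p = 0.69). *Neto2*, the more abundant, was at 6.42, 6.27, and 5.79 FPKM and at 5.84, 5.54, and 6.98 FPKM (log2 fold change -0.01). Neither was free of overlap.

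Among 14 assembly and trafficking genes, the lipase *Abhd6*, which limits AMPA receptor delivery to the surface, had a log2 fold change of -0.36 (limma adjusted p = 0.60), and the activity-induced gene *Arc*, which serves receptor endocytosis, one of 0.65 (adjusted p = 0.61). *Arc* was low, at 0.162, 0.284, and 0.291 FPKM in controls and 0.312, 0.586, and 0.442 FPKM in the others, near the pseudocount of 0.1 FPKM. Among 9 secreted clustering proteins, the pentraxin *Nptx1* had a log2 fold change of 0.26 (adjusted p = 0.59), and among 17 postsynaptic scaffolds *Dlgap2* and *Dlgap3* had 0.45 and 0.23 (adjusted p = 0.59 and 0.60). Of the adenosine deaminases acting on RNA, *Adarb1*, which encodes the ADAR2 named beside the windows above, had a log2 fold change of 0.14, *Adar* one of -0.05, and *Adarb2* one of -0.04 (limma adjusted p = 0.69, 0.90, and 0.96).

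**Figure D4:**
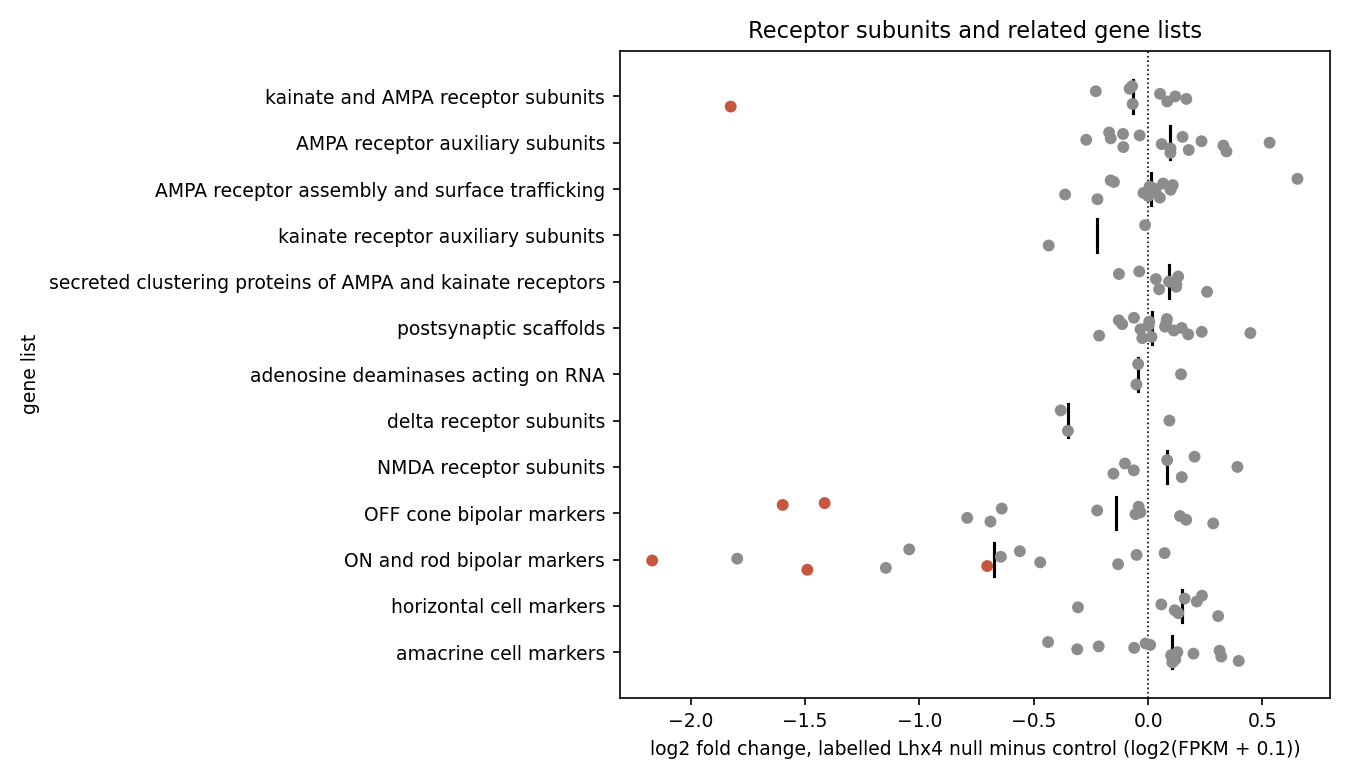
Log2 fold change, libraries labelled *Lhx4* null minus control on the log2(FPKM + 0.1) scale, of each gene (points) of the receptor subunits, 8 related lists, and 4 cell type marker lists, with list medians as black bars and genes called by limma (adjusted p under 0.05) in red. *Grik1* is the only red point outside the bipolar cell lists shown.

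Genes of bipolar cells were called lower beside *Grik1*. Of 12 OFF cone bipolar genes, 9 had a negative log2 fold change and 2 were called lower, *Fezf2* (-1.60) and *Lhx3* (-1.41), with a median of -0.14. At an unadjusted p under 0.05 in limma, 5 of the 12 (41.7%) were lower and 1 (8.33%) higher, against 3.55% and 4.60% of all genes tested. The OFF list went both ways. *Irx6* (-0.64, limma adjusted p = 0.066), *Erbb4* (-0.79, adjusted p = 0.38), and *Tacr3* (-0.69, adjusted p = 0.40) were not called. For each of them, every null-labelled library was below every control. *Vsx1* (0.28), *Syt2* (0.17), and *Hcn4* (0.14) were positive and not called. For *Hcn4*, every null-labelled library was above every control. *Prkar2b* (-0.06) and *Kcnip3* (-0.03) were near 0, and these OFF genes that were not called were named after their values were seen. Of 12 ON and rod bipolar genes, 11 were negative and 3 were called lower, *Grm6* (-1.49), *Isl1* (-0.70), and *Pcp2* (-2.17), with a median of -0.67. Several of these markers were picked by the study as lowered in these libraries, so their direction is not independent evidence. The summed OFF list was at 484 to 556 FPKM in controls and 409 to 562 FPKM in the others, but *Nnat* made up most of that sum (377 to 463 and 322 to 486 FPKM). The other 11 OFF genes summed to 92.4 to 107 FPKM in controls and 75.0 to 86.8 FPKM in the others, without overlap, a sum added after the data were seen. That sum holds the called *Fezf2* (mean 10.2 against 3.31 FPKM) and *Lhx3* (15.5 against 5.77 FPKM). It was not computed without these 2 genes, so it shows no fall of the rest of the list. The summed ON and rod list was at 446 to 606 and 317 to 363 FPKM. No marker was at 0 in any library, and the part of these cells in the fall of *Grik1* was not tested.

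Of the lists for other cell types, only that of cones held a called gene. The median log2 fold change was 0.15 over 8 horizontal cell genes (*Onecut1* and *Prox1* lay nearest it), 0.11 over 15 amacrine genes, 0.07 over 12 ganglion cell genes, and 0.12 over 10 Muller glia genes. It was -0.31 over 10 rod genes and 0.29 over 10 cone genes, of which *Opn1sw* was called higher (0.88). The cone list went both ways: *Opn1mw* (-1.77, limma adjusted p = 0.097) and *Arr3* (-1.27, limma adjusted p = 0.077), named after their values were seen, were below every control in all 3 null-labelled libraries. For microglia it was 0.26, for astrocytes -0.01, and for endothelium and pericytes -0.15. The pigment epithelium list had a median of 0.72, with a summed level of 21.4 to 43.4 FPKM in controls and 47.4 to 81.4 FPKM in the null-labelled libraries, and its part in the receptor values was not tested.

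The genes whose pattern over the 6 libraries was most like that of *Grik1* were *A730046J19Rik* (Pearson's r = 0.999), *Gsg1* (0.998), *Tpi1* (0.994), *Zfhx4* (0.994), and *Bhlhe23* (0.994), out of 12484 genes averaging at least 1 FPKM. These r are descriptions over libraries that fall into 2 groups, and no p is given for them. *Gsg1* was at 16.3 to 19.7 FPKM in controls and 2.54 to 4.35 FPKM in the others. *Zfhx4*, a zinc finger and homeodomain factor, was at 7.81 to 9.38 and 2.66 to 3.50 FPKM, and *A730046J19Rik* at 6.88 to 7.45 and 2.48 to 3.03 FPKM. *Bhlhe23*, a basic helix-loop-helix factor, was at 10.2 to 13.0 and 0.563 to 0.830 FPKM. *Tpi1*, a glycolytic enzyme, changed far less, from 253 to 258 FPKM down to 190 to 206 FPKM (log2 fold change -0.38, limma adjusted p = 0.11), and the other 4 were called.

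**Figure D5:**
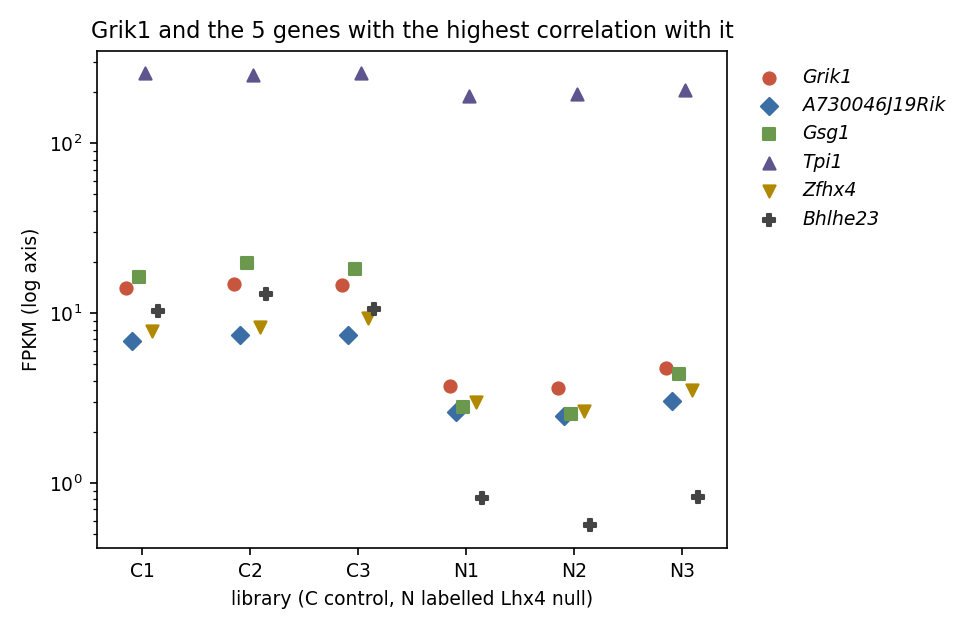
FPKM on a log axis of *Grik1* and of the 5 genes with the highest correlation with it, in the 3 control (C) and 3 null-labelled (N) libraries. All 6 genes are lower in every null-labelled library, *Bhlhe23* most (0.563 to 0.830 FPKM) and *Tpi1* least (190 to 206 FPKM).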

How the data were processed

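At postnatal day 7, retinal RNA of 3 control mice and of 3 mice labelled *Lhx4* null was sequenced, paired-end. The authors mapped the reads with TopHat2 and estimated levels with Cufflinks, and they deposited FPKM for each gene, on GRCm38 per the submitters' processing notes. Program versions, annotation, and use of strand are not given in the sources used here. Groups and replicate numbers came from the labels, and libraries of P6 were not used here. The labels do not say whether litters or batches were shared.

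Because FPKM are not counts, log2(FPKM + 0.1) was fitted with limma 3.58.1 (lmFit, eBayes with trend) in R 4.3.3 over the 15200 genes averaging at least 0.1 FPKM, without covariate. All p-values are two-sided, and adjustment was by Benjamini-Hochberg over all genes tested. The pseudocount understates the change of low genes. Shares and sums were compared by exact permutation. Depth was recovered from the steps of 5708 low genes, and it is relative, so it gives no total count. The study states a range of reads per library, but not the count of each library. Positions and sequences came from GENCODE vM21 on GRCm38, in which 21603 of the 21744 identifiers were found. The fit and the depth step were tested on simulated data. Figures were drawn with Python 3.11.15 and matplotlib 3.10.9.

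Members, gene lists, and tests were chosen with earlier results of these data known. Genes named were the 9 members, *Lhx4*, pathway list genes with an unadjusted p under 0.05 or in lists of up to 3, marker genes nearest their list's median or called, and the 5 most like *Grik1*. Not every gene that this rule names is reported here, and a few genes outside it were named after their values were seen. The alternatives were a pseudocount of 1 or of 0.01 FPKM, no filter or one at 1 FPKM on average, median-of-ratios or quantile scaling, no trend, a replicate block, and each library left out in turn. Those with *Grik1* left out of the sum were added after the data were seen.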

Additional observations from a re-analysis of the deposited data

How the results depend on the processing

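Of 126 log2 fold changes of the 9 members over 14 alternatives, 125 kept their direction and their side of an adjusted p of 0.05, and *Grik1* was called in all 14. The exception was *Grik3*, at -0.10 without *Lhx4* null replicate 2, within a range of -0.10 to 0.19 when each library was left out. Leaving out 1 library moved the genes called from 34 to between 15 and 31, and those called lower from 21 to between 13 and 19. With no filter, 20 genes were called. Members with an unadjusted p under 0.05 numbered 1 to 2 when each library was left out, and *Gria2* was the 2nd without *Lhx4* null replicate 3. The share of *Gria4* (null minus control) ranged from -0.37 to 2.98 percentage points and kainate per 100 AMPA receptor FPKM from -11.0 to 1.97, with 0.029, 1.33, and 1.97 where control replicate 2 or *Lhx4* null replicates 1 or 3 were left out. With *Grik1* left out of the sum, the share of *Grik2* differed by -2.06 percentage points in place of 1.43 and the summed kainate level by 2.94 FPKM in place of a drop by 7.47 FPKM. Except where an alternative leaves out a gene or library by construction, the cause was not tested.

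Deviations of same-numbered libraries from their group means correlated with r of -0.13, -0.00020, and 0.16, and those of differently numbered libraries with r of -0.24 to 0.24. With so few libraries a group, these values cannot decide whether replicate numbers pair the libraries. With the replicate block, 15 genes were called, 11 of them lower, and 2 members had an unadjusted p under 0.05, *Grik1* and *Gria2* (0.037, adjusted p = 0.61 from limma).

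With 3 libraries a group, the exact permutation tests have a smallest p of 0.1, and the libraries labelled null were the shallower ones. The widest interval below 0 among the 8 members that were not called was that of *Gria2*, which reached -0.57 on the log2 scale.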

Other observations

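Of 7 NMDA receptor subunit genes, 0 passed an unadjusted p under 0.05 in limma, and their log2 fold changes ran from -0.15 to 0.39 with a median of 0.08. *Grid1*, which encodes a delta receptor subunit that binds cerebellins across the synapse, was at 3.00, 4.80, and 3.16 FPKM in controls and 2.79, 2.64, and 2.93 FPKM in the null-labelled libraries. All 3 null-labelled libraries were below all controls, but control replicate 2 alone set most of the difference (log2 fold change -0.35, limma adjusted p = 0.67). As 14.2% of all genes tested were free of overlap, *Grid1* is given as values only.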
